A study of Mus musculus with 21 samples.

Results

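Transcript levels of 9 genes of the Bcl2 family were described in CD4 T cells from mouse splenocyte cultures that had been activated with or without transforming growth factor beta (TGFB). The set was named by symbol and held 10 genes: the survival genes Bcl2, Bcl2l1 (which encodes Bcl-xL) and Mcl1, the pore-forming genes Bak1 and Bax, and the death-sensing genes Bcl2l11 (Bim), Bbc3 (Puma), Pmaip1 (Noxa), Bid and Bad. Each gene was read from the transcript cluster annotated to its symbol alone, and Bax, which had no such cluster, was not analysed here. The 9 measured genes stand among 14860 genes tested, and each had 1 cluster.

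The cells came from 2 Marilyn mouse lines, whose CD4 T cells carry a transgenic receptor for the male antigen HY. Marilyn.Foxp3hCD2 cells, called reporter cells here, display human CD2 (hCD2) when they express Foxp3, the defining transcription factor of regulatory T cells. Marilyn.Foxp3-/- cells, called knockout cells here, carry no functional Foxp3 according to their label. Activated reporter cells were either left untreated or given TGFB and sorted as CD4+hCD2+ and CD4+hCD2-, with 5 samples in each of these 3 groups, and activated knockout cells were left untreated or given TGFB, with 3 samples in each of these 2 groups. The label CD4+CD2 is given to untreated reporter and to both knockout groups, and the species of that CD2 is not given. The labels give no age, dose or time. In cells sorted in bulk, a lower level can come from fewer cells that express a gene or from less transcript per cell, and these cannot be told apart.

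Proteins of this family decide whether the outer membrane of the mitochondrion is breached during apoptosis. Bcl2, Bcl-xL and Mcl1 hold the pore formers Bax and Bak in check, and the death-sensing proteins, which share only the BH3 stretch with the rest, are released or induced by stress and bind to the survival proteins or to the pore formers. In T cells, activation and survival cytokines such as interleukin-2 and interleukin-7 raise survival members, and Bim is the main killer of T cells whose antigen or cytokine is withdrawn.

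Values are log2 signals summarised by RMA, so that a difference of 1 is a 2-fold change. The 15 reporter arrays had lower quartiles between 4.93 and 5.02 and the 6 knockout arrays between 5.61 and 5.68, so levels set across the genotypes may differ for technical reasons alone, which was not tested. Interquartile ranges were narrow (under 2.5) on 4 reporter arrays, which were replicates 1, 3 and 4 of the hCD2- group and replicate 3 of the hCD2+ group. Of the T cell markers, 8 of 10 were measured, and all 8 stood above the median of every array. Under TGFB 1 of the 8 was called higher in hCD2+ cells, 1 lower in hCD2- cells and none in knockout cells. Quantile normalization called 4 higher and 1 lower in each fraction and 3 higher in knockout cells. Cd5 averaged 8.23 in untreated, 9.63 in hCD2+ and 8.88 in hCD2- reporter cells, and Thy1 11.44, 10.72 and 10.32. The mean of 7 B cell genes lay between 5.33 and 5.65 on reporter arrays and between 6.09 and 6.27 on knockout arrays. The highest of them there, Cd79b, averaged 7.23 in untreated and 7.77 in TGFB knockout cells. None of the B cell, macrophage and dendritic cell, granulocyte or erythroid markers passed the test under TGFB on the deposited values, although the macrophage marker Cd68 averaged 7.58 to 8.47 by group. Quantile normalization called 1 B cell marker higher in hCD2+ cells and 1 higher in knockout cells. It also called 1 macrophage and dendritic cell marker lower in hCD2- cells. Of 4 NK cell markers, Eomes, which activated T cells can also express, fell in hCD2+, hCD2- and knockout cells (-0.67, -0.97 and -1.02, limma adjusted p 0.0412, 0.00284 and 0.0440), and Klri2 rose in hCD2+ cells (0.41, 0.0440). The 2 CD8 markers went different ways. Cd8a rose in hCD2- and knockout cells, with group means of 6.33 in untreated, 7.01 in hCD2+ and 8.77 in hCD2- reporter cells and of 6.84 and 9.31 in untreated and TGFB knockout cells. Cd8b1 fell in hCD2+ and hCD2- cells (-0.95 and -0.74, limma adjusted p 0.00416 and 0.0152, the latter -0.25 and 0.165 after quantile normalization) and stood at -0.20 in knockout cells. The part of other cells in the family's differences was not tested. The cluster that Foxp3 shares with its neighbour Flicr averaged 6.30 in untreated, 10.7 in hCD2+ and 6.72 in hCD2- reporter cells. The same cluster averaged 6.94 in untreated and 8.55 in TGFB knockout cells, and since it is not known which part of the gene its probes read, it does not check the knockout.

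Under TGFB, 4 of the 9 family transcripts fell in both sorted fractions of reporter cells and none rose on the deposited values. Bcl2 fell 2.92-fold in hCD2+ and 4.19-fold in hCD2- cells, Bcl2l1 fell 1.81-fold and 2.39-fold, the pore former Bak1 fell 2.11-fold and 2.99-fold, and Bbc3 fell 1.32-fold and 1.34-fold. Mcl1, Bcl2l11, Pmaip1, Bid and Bad did not pass the test. After quantile normalization Bbc3 was no longer called, and Mcl1 (both fractions) and Bad (hCD2+ cells) were called higher. In knockout cells Bcl2 fell 2.12-fold and Bcl2l1 1.96-fold under TGFB. Tests were limma moderated tests with an adjusted p under 0.05 as the threshold. Of all genes, 11.6% passed in hCD2+ cells (9.66% lower and 1.94% higher), 18.9% in hCD2- cells (16.9% lower and 2.05% higher) and 2.75% in knockout cells (1.85% lower). The median difference over the 9 genes was -0.25 in hCD2+ cells, -0.36 in hCD2- cells and -0.41 in knockout cells, beside medians over all genes of -0.066, -0.094 and -0.03. The comparisons of both fractions share the 5 untreated arrays, so their values are not independent of each other.

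**Figure D1:**
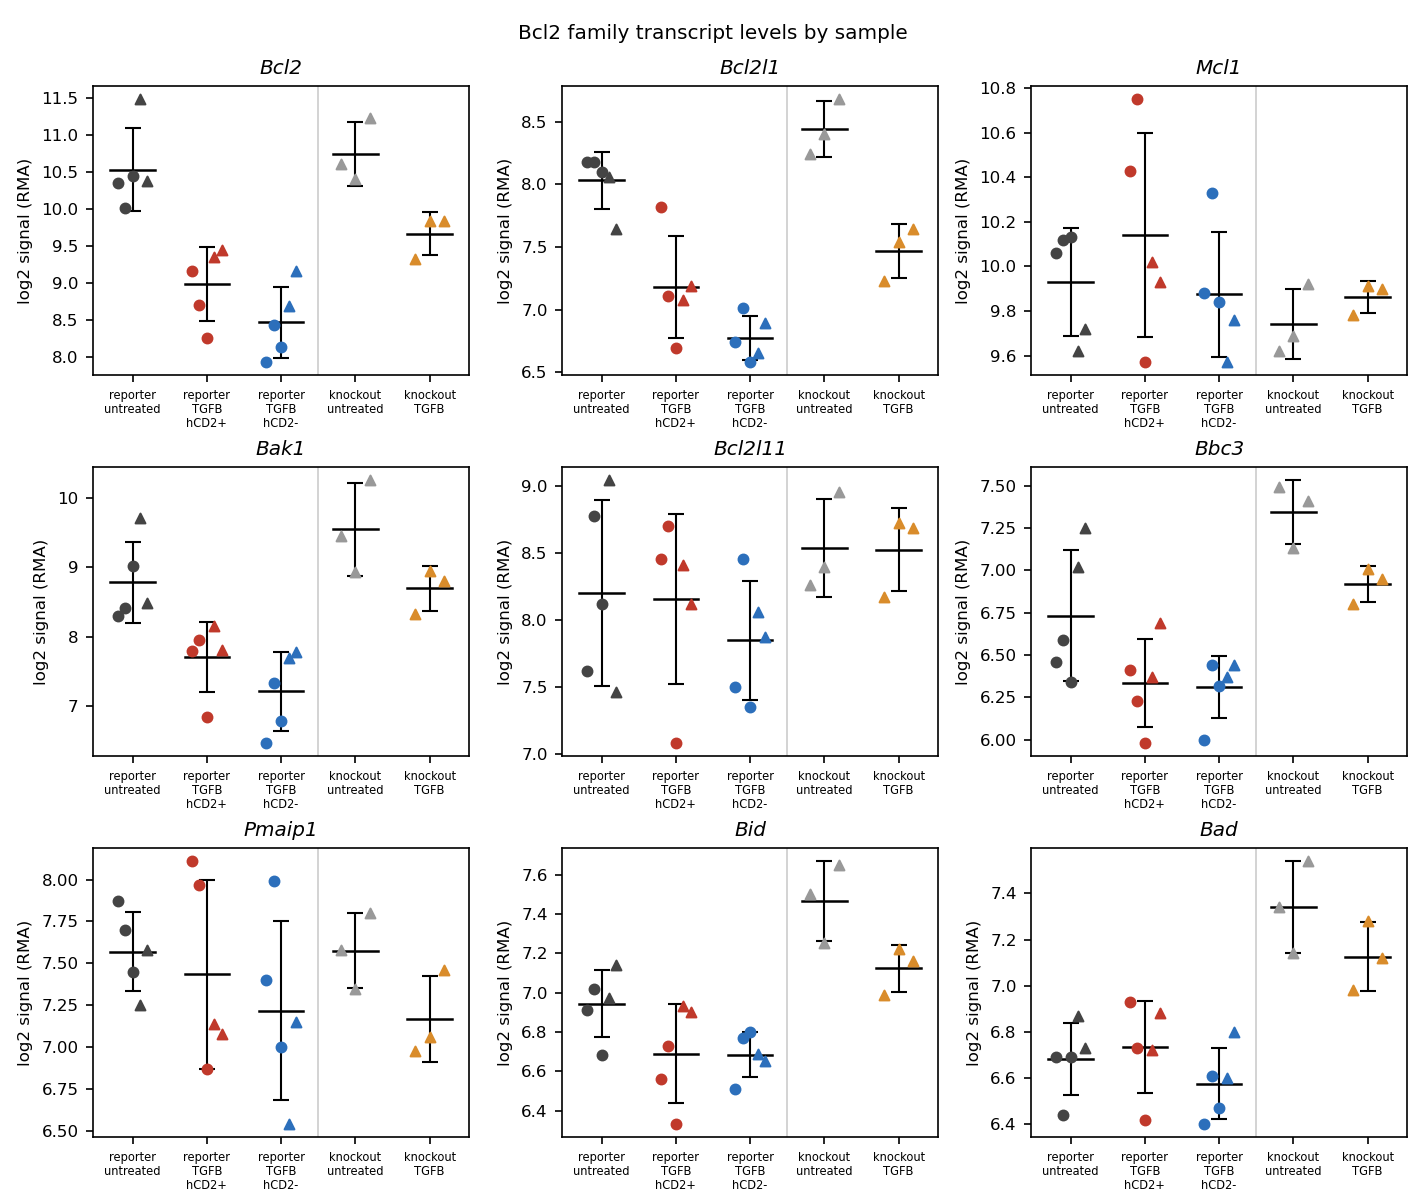
Log2 signal (vertical axes) of the 9 family transcripts on each of the 21 arrays, by group, with group mean and SD (bars). Circles are samples of study 1 and triangles samples of study 2. Bcl2 lies at 10.02 or higher on all untreated reporter arrays and at 9.45 or lower on all TGFB reporter arrays, while Mcl1 and Bcl2l11 overlap between the groups.

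Bcl2 encodes the founding survival protein of the family. In untreated reporter cells its log2 signal was 10.35, 10.02, 10.45, 11.49 and 10.38 in replicates 1 to 5. In the hCD2+ fraction it was 9.17, 8.71, 8.26, 9.36 and 9.45, and in the hCD2- fraction 7.93, 8.44, 8.13, 8.69 and 9.16. Every TGFB sample thus lay below every untreated sample, and replicate 4 was the highest of the untreated samples. The means were 10.54 ± 0.56 (SD, n = 5) in untreated, 8.99 ± 0.50 in hCD2+ and 8.47 ± 0.48 in hCD2- cells. The log2 difference from untreated cells was -1.55 ± 0.22 (SE) in hCD2+ cells, with a limma adjusted p of 0.000118, and -2.07 ± 0.22 in hCD2- cells, with an adjusted p of 3.39e-06. The calls were kept without each array in turn, with differences from -1.71 to -1.40 and from -2.23 to -1.92. Within study 1 the differences were -1.56 and -2.11 (limma adjusted p 0.021 and 0.00393), and within study 2, with 2 arrays a group, they were -1.53 and -2.01 (0.0897 and 0.0223). Bcl2 followed the width of the arrays, with a Pearson r of 0.78 to the interquartile range over the 15 reporter arrays. All 9 genes had a positive r, from 0.33 (Mcl1) to 0.84 (Bak1), with Bcl2l1 at 0.71 and the uncalled Bad at 0.77. These values include the differences between the treatment groups. Without the 4 narrow arrays Bcl2 was still called lower, at -1.43 in hCD2+ and -1.80 in hCD2- cells (limma adjusted p 0.000825 and 0.00124).

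In knockout cells Bcl2 stood at 10.61, 10.41 and 11.24 untreated and at 9.33, 9.84 and 9.84 with TGFB. The groups did not overlap, as was true of 16.4% of all genes in this comparison of 3 against 3. The difference was -1.08 ± 0.28 (SE), with a limma adjusted p of 0.0417. The call was lost without any 1 of the arrays other than untreated replicate 2: adjusted p was 0.0751 and 0.227 without untreated replicates 1 and 3, and 0.225, 0.0896 and 0.0880 without TGFB replicates 1, 2 and 3, with differences from -1.25 to -0.84 over all 6 omissions.

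Bcl2l1 encodes Bcl-xL, the survival protein that activation and costimulation are known to raise in T cells. Its log2 signal was 8.18, 8.18, 8.10, 8.06 and 7.64 in untreated reporter cells. It was 7.82, 7.11, 6.69, 7.08 and 7.19 in the hCD2+ fraction and 6.74, 7.01, 6.58, 6.65 and 6.89 in the hCD2- fraction. Replicate 1 of the hCD2+ cells lay above the lowest untreated sample, and all other TGFB samples lay below the untreated ones. The means were 8.03 ± 0.23 (SD, n = 5), 7.18 ± 0.41 and 6.77 ± 0.18. The differences from untreated cells were -0.85 ± 0.17 (SE) in hCD2+ cells and -1.26 ± 0.17 in hCD2- cells, with limma adjusted p of 0.00236 and 4.45e-05, and both calls were kept without each array in turn. They were also kept without the 4 narrow arrays, at -0.70 and -1.05. Within study 1 the differences were -0.95 and -1.38 (limma adjusted p 0.142 and 0.0268), and within study 2 they were -0.72 and -1.08 (0.147 and 0.025). In knockout cells the signal was 8.24, 8.40 and 8.68 untreated against 7.23, 7.54 and 7.64 with TGFB. Here too the groups did not overlap, and the difference was -0.97 ± 0.22 with a limma adjusted p of 0.0170. This call was lost without untreated replicate 3 (-0.85, adjusted p 0.0943) and without TGFB replicate 1 (-0.85, 0.103) or TGFB replicate 2 (-1.0, 0.0553).

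Mcl1 encodes the short-lived survival protein that T cells need at most stages. In untreated reporter cells it read 10.06, 10.12, 10.13, 9.62 and 9.72. It read 10.43, 10.75, 9.57, 10.02 and 9.93 in hCD2+ cells and 9.88, 10.33, 9.84, 9.57 and 9.76 in hCD2- cells. The groups overlapped, and the untreated samples of study 1 (replicates 1 to 3) lay above those of study 2. The difference was 0.21 (95% interval -0.13 to 0.55) in hCD2+ cells and -0.054 (-0.39 to 0.28) in hCD2- cells, with limma adjusted p of 0.432 and 0.837. In knockout cells Mcl1 read 9.62, 9.69 and 9.92 untreated and 9.78, 9.91 and 9.90 with TGFB, a difference of 0.12 (-0.31 to 0.55). Scaling changed the calls in reporter cells: after quantile normalization across all arrays Mcl1 was called higher in both fractions, by 0.56 in hCD2+ cells (limma adjusted p 0.000351) and by 0.43 in hCD2- cells (0.00307), and in hCD2+ cells it was also called higher without the 4 narrow arrays (0.41, 0.0101) and without hCD2+ replicate 3 alone (0.40, 0.0278). Its drop below 0 in hCD2- cells thus turned with the scaling, whereas the lower signals of Bcl2 and Bcl2l1 were called under quantile normalization too, at -1.22 and -0.50 in hCD2+ cells and at -1.58 and -0.82 in hCD2- cells.

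Bak1 encodes Bak, the pore former that sits on mitochondria before any death signal. Its signal in untreated reporter cells was 8.30, 8.42, 9.02, 9.71 and 8.48. It was 7.79, 7.95, 6.84, 8.16 and 7.80 in hCD2+ cells and 6.46, 7.33, 6.78, 7.69 and 7.78 in hCD2- cells. All TGFB samples lay below all untreated samples, and the lowest samples of both fractions came from narrow arrays. The means were 8.79 ± 0.59 (SD, n = 5), 7.71 ± 0.51 and 7.21 ± 0.57. The differences were -1.08 ± 0.28 (SE) in hCD2+ cells, with a limma adjusted p of 0.0176, and -1.58 ± 0.28 in hCD2- cells, with an adjusted p of 0.00076. Bak1 had the highest correlation of the 9 genes with the interquartile range of the array, a Pearson r of 0.84 over the 15 reporter arrays, and the part of array width in its fall was not tested beyond the omissions that follow. Without the 4 narrow arrays the difference in hCD2+ cells was -0.90 and no longer called (limma adjusted p 0.0548), while that in hCD2- cells was -1.27 and called (0.0411). The hCD2+ call was also lost without untreated replicate 3 (-0.95, adjusted p 0.0584) or 4 (-0.92, 0.0646) and without hCD2+ replicate 3 (-0.91, 0.0521) or 5 (-1.0, 0.0501). Quantile normalization left both calls in place, at -0.73 and -1.11. Within study 1 the differences were -1.05 and -1.72 (limma adjusted p 0.211 and 0.0314), and within study 2 they were -1.11 and -1.36 (0.327 and 0.155). In knockout cells Bak1 read 9.46, 8.93 and 10.26 untreated and 8.33, 8.95 and 8.81 with TGFB, so that the groups overlapped, and the difference of -0.85 ± 0.37 did not pass (limma adjusted p 0.349).

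The number of family members whose untreated and TGFB groups did not overlap was 2 of 9 (Bcl2, Bak1) in hCD2+ cells and 3 of 9 (with Bcl2l1) in hCD2- cells. Among all genes the groups did not overlap for 7.34% and 10.1%.

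The promoters of Bcl2 and Bak1 are printed because these 2 genes, of opposite function, fell in both fractions with no overlap between the groups. Each is the 250 bases before the transcript start in RefSeq's annotation of GRCm38.p6, read 5′ to 3′ on the gene's strand, the minus strand for both. They were searched on both strands for TTCNNNGAA (bound by STAT factors, which act below cytokine receptors), GTAAACA (bound by FOXO factors), and GTCTAGAC and CAGAC (bound by SMAD factors, which act below TGFB receptors). Capitals mark a match. The Bcl2 window is at chr1:106714291-106714540 and the Bak1 window at chr17:27028628-27028877.
Bcl2: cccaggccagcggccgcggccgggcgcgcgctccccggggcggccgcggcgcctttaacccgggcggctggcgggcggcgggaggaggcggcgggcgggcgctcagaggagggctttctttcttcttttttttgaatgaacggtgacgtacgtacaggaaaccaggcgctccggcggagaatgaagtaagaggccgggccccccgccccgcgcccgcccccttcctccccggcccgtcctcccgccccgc
Bak1: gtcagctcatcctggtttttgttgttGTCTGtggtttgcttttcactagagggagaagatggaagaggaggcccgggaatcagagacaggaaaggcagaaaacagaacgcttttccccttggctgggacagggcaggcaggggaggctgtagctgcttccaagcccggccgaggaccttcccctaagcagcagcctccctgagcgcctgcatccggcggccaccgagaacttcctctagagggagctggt
The Bcl2 window held no match, and the Bak1 window held 1, to CAGAC read from the other strand, a motif found in 42.2% of 32851 promoter windows of the same length. No searched window of a family member held TTCNNNGAA (7.02% of all windows) or GTCTAGAC (0.167% of all windows). Windows were searched for 9 of the 10 genes, 15 in all, and none was searched for Pmaip1.

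Of the BH3-only genes, whose products sense damage or starvation, 1 of 5 (Bbc3) fell in each fraction of reporter cells, beside 9.66% and 16.9% of all genes called lower, none passed in knockout cells, and none rose on the deposited values (Bad was called higher in hCD2+ cells after quantile normalization). Their median difference was -0.14 in hCD2+, -0.35 in hCD2- and -0.34 in knockout cells, beside -0.066, -0.094 and -0.03 over all genes.

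Bbc3 encodes Puma, a BH3-only protein induced by p53 and by FOXO factors. It read 6.46, 6.59, 6.34, 7.02 and 7.25 in untreated reporter cells, 6.41, 6.23, 5.98, 6.37 and 6.69 in hCD2+ cells and 6.0, 6.44, 6.32, 6.37 and 6.44 in hCD2- cells. The untreated samples of study 2 were the highest, and the others overlapped with the TGFB samples. The differences were -0.40 ± 0.13 (SE, limma adjusted p 0.0495) and -0.42 ± 0.13 (0.0273). The hCD2+ call was lost without any 1 of 8 of the 10 arrays compared, with adjusted p up to 0.142 and differences from -0.46 to -0.31, and was kept only without untreated replicate 3 or hCD2+ replicate 1. The hCD2- call was lost without untreated replicates 4 or 5 or hCD2- replicates 1, 4 or 5, with adjusted p up to 0.0876 and differences from -0.49 to -0.34. Neither call was made after quantile normalization (-0.24, adjusted p 0.167, and -0.19, 0.230) or without the 4 narrow arrays (-0.34, 0.121, and -0.33, 0.319). Within study 1 the differences were -0.26 and -0.21 (limma adjusted p 0.606 and 0.597), and within study 2 they were -0.60 and -0.73 (0.137 and 0.0539). Knockout cells read 7.49, 7.13 and 7.41 untreated and 6.80, 7.01 and 6.95 with TGFB, which do not overlap, and the difference of -0.42 ± 0.16 did not pass (limma adjusted p 0.259).

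Bcl2l11 encodes Bim. It read 7.62, 8.77, 8.12, 9.04 and 7.46 in untreated reporter cells, 8.45, 8.70, 7.08, 8.41 and 8.12 in hCD2+ cells and 7.50, 8.45, 7.35, 8.06 and 7.87 in hCD2- cells. Its spread between replicates was the widest of the 9 genes in untreated reporter cells (8.20 ± 0.69, SD, n = 5), and the groups overlapped fully. The differences were -0.05 (95% interval -0.74 to 0.64) and -0.36 (-1.04 to 0.33), which leaves room for changes of this size in either direction. In knockout cells it read 8.26, 8.39 and 8.95 untreated and 8.17, 8.72 and 8.68 with TGFB, a difference of -0.01 (-0.90 to 0.88).

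Among the members with a searched window, which leaves out Pmaip1, the Bim and Puma genes held the FOXO motif and the others did not. Both are known targets of FOXO factors. The sites are shown with 10 bases on either side, the motif in capitals, from RefSeq's GRCm38.p6, on the plus strand, which is the strand of both genes. The motif was found in 1 of the 2 windows of Bcl2l11 and in 1 of the 3 windows of Bbc3. It occurs in 3.17% of all windows, a share counted by window and not by gene.
Bcl2l11, chr2:128125801-128125827: agacactaggGTAAACAcgccggggtg
Bbc3, chr7:16310084-16310110: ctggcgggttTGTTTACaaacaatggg
The Bcl2l11 motif begins 227 bases before a transcript start. The Bbc3 motif, read from the other strand, begins 167 bases before 1 of the 3 starts annotated for that gene. These matches describe the letters of the windows and are not measured binding sites.

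Pmaip1 encodes Noxa, a BH3-only protein that binds Mcl1 above all. It read 7.87, 7.70, 7.45, 7.25 and 7.58 in untreated, 8.11, 7.97, 6.87, 7.14 and 7.08 in hCD2+ and 7.40, 7.99, 7.0, 6.54 and 7.15 in hCD2- reporter cells. Replicates 1 and 2 of the hCD2+ cells exceeded all untreated samples, while the other 3 lay below all of them. The differences of -0.14 (95% interval -0.60 to 0.33) and -0.35 (-0.82 to 0.11) did not pass, nor did that of -0.41 (-1.01 to 0.19) in knockout cells, which read 7.58, 7.35 and 7.80 untreated and 6.98, 7.06 and 7.46 with TGFB.

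Bid encodes the BH3-only protein that caspase-8 cleaves to link death receptors to mitochondria. Its reporter signals lay between 6.68 and 7.14 untreated, 6.33 and 6.93 in hCD2+ and 6.51 and 6.80 in hCD2- cells. The differences of -0.25 and -0.26 had limma adjusted p of 0.157 and 0.110. In knockout cells Bid lay between 7.25 and 7.65 untreated and between 6.99 and 7.22 with TGFB, without overlap, and the difference of -0.34 did not pass (adjusted p 0.329). Bad encodes the BH3-only protein that survival kinases hold inactive by phosphorylation. Its signals lay between 6.44 and 6.87 untreated, 6.42 and 6.93 in hCD2+ and 6.40 and 6.80 in hCD2- reporter cells, and the differences were 0.052 and -0.11 (limma adjusted p 0.797 and 0.504). After quantile normalization Bad was called higher in hCD2+ cells (0.24, adjusted p 0.0161) and its difference in hCD2- cells turned to 0.15, without a call. Knockout cells lay between 7.14 and 7.54 untreated and 6.98 and 7.28 with TGFB, a difference of -0.21.

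**Figure D2:**
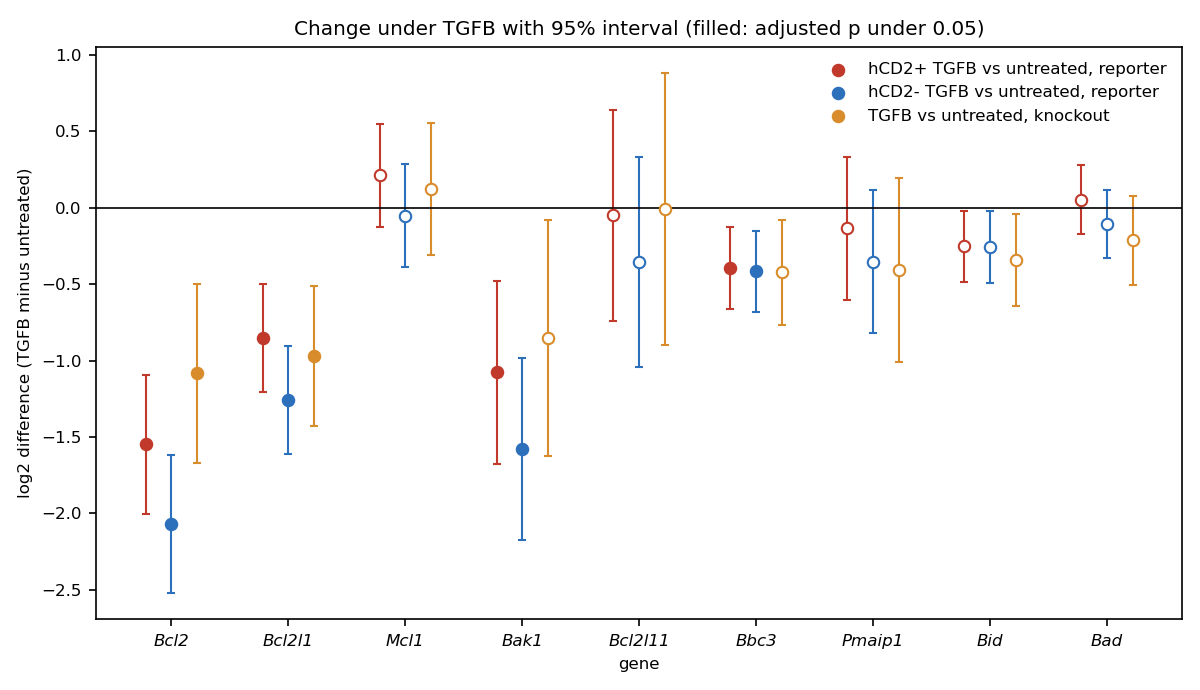
Log2 difference of TGFB from untreated cells (vertical axis) for the 9 genes, with 95% intervals from limma, in hCD2+ and hCD2- reporter cells and in knockout cells. Filled points had an adjusted p under 0.05: Bcl2 and Bcl2l1 in all 3 comparisons, and Bak1 and Bbc3 in the reporter fractions.

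The sorted fractions were compared directly to ask whether family levels followed hCD2, the marker of Foxp3. On the deposited values all 9 genes averaged higher in hCD2+ than in hCD2- cells, after quantile normalization Bid (-0.11) and Bbc3 (-0.046) averaged lower, and none of the 9 passed the test on either scale, beside 0.155% of all genes called. By limma, 2 of the 9 had an unadjusted p under 0.05, as did 620 of the 14860 genes. These were Bcl2, higher by 0.52 ± 0.22 (SE; 95% interval 0.068 to 0.97) with an adjusted p of 0.994, and Bcl2l1, higher by 0.40 ± 0.17 (0.051 to 0.76) with an adjusted p of 0.994. The other differences ran from 0.006 to 0.50. Between fractions of the same replicate number, Bcl2, Bcl2l1 and Bak1 were higher in hCD2+ cells in 5 of 5. Bbc3 and Pmaip1 were higher there in 2 of 5, and the rest in 3 or 4. The fit did not pair the fractions, and with replicate number as a block Bcl2 and Bcl2l1 did not pass either. Every gene overlapped between the fractions, beside 0.666% of all genes that did not, and 0.128% of all genes were called higher and 0.0269% lower in hCD2+ cells. Narrow arrays were unequally split, 3 of 5 in the hCD2- and 1 of 5 in the hCD2+ group, and their part in the higher averages was not tested.

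The response of each reporter fraction was then compared with that of knockout cells. Only the reporter TGFB cells were split by hCD2, so in these comparisons sorting and genotype cannot be told apart. None of the 9 genes passed in either comparison, and of all genes 0% passed for hCD2+ cells and 0.00673% for hCD2- cells. Differences in response ran from -0.46 (Bcl2) to 0.27 for hCD2+ cells, with no member at an unadjusted p under 0.05 by limma beside 375 of all genes. For hCD2- cells they ran from -0.98 to 0.11, and 1 member had an unadjusted p under 0.05, as did 550 of all genes. This was Bcl2, which fell further in hCD2- than in knockout cells (-0.98 ± 0.35, SE; 95% interval -1.72 to -0.25) with an adjusted p of 0.902. The intervals are wide with 3 knockout arrays a group, and a missed threshold does not show that responses were equal.

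Untreated knockout cells differed from untreated reporter cells in Bad (higher by 0.55 ± 0.13, limma adjusted p 0.00217) and Bid (higher by 0.42 ± 0.14, 0.0203). Beside these, 46.1% of all genes were called (45.9% higher). The median over all genes was 0.44 in this comparison and that over the 9 genes 0.38. The untreated genotypes did not overlap for 3 of the 9 (Bad, Bid and Bcl2l1), beside 44.2% of all genes. After quantile normalization across genotypes, which moved the median of all genes by -0.44, none of the 9 genes was called (3.9% of all genes were, 1.8% higher and 2.11% lower). The call of Bid was also lost without reporter untreated replicate 4, knockout untreated replicate 1 or knockout untreated replicate 3 (differences of 0.38, 0.40 and 0.32). Bcl2 itself was 10.54 ± 0.56 (n = 5) in untreated reporter and 10.75 ± 0.43 (SD, n = 3) in untreated knockout cells, a difference of -0.21 with study in the fit, which did not pass.

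Ordered by mean level, Bcl2 was highest in untreated cells of both genotypes, followed by TGFB knockout cells (9.67 ± 0.29, SD, n = 3), hCD2+ cells and hCD2- cells. Which untreated genotype came first depended on the arrays and scale used: knockout cells were ahead over all arrays, and reporter cells were ahead within study 2 (10.94 against 10.75) and after quantile normalization (10.43 against 10.29). Their samples overlapped, as did those of TGFB knockout and hCD2+ cells and of the sorted fractions. Bcl2l1 averaged 8.44 ± 0.22 (SD, n = 3) in untreated and 7.47 ± 0.21 in TGFB knockout cells, each ahead of the reporter groups of the same treatment on the deposited values. After quantile normalization TGFB knockout cells (7.09) averaged below hCD2+ cells (7.40) and level with hCD2- cells (7.09). For Mcl1 the 5 group means lay between 9.74 and 10.14 on the deposited values, and neighbours in the order did not differ beyond their spread. After quantile normalization they ran from 9.30 in untreated knockout to 10.37 in hCD2+ cells.

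Scaling moved the whole table as well as these genes. Quantile normalization shifted the median of all genes by 0.10 in the hCD2+ and 0.14 in the hCD2- comparison, and centring each array on its median shifted it by 0.16 and 0.21. Called genes were then 8.39% higher and 9.36% lower of all genes in hCD2+ cells and 11.3% higher and 11.6% lower in hCD2- cells, in place of the mostly lower calls on the deposited values. Among the family, 3 were called lower and 2 higher in hCD2+ cells and 3 lower and 1 higher in hCD2- cells after quantile normalization, beside 17.8% and 22.9% of all genes called in either direction. In knockout cells it called 2 lower and none higher, where 10.8% of all genes were called (5.07% lower and 5.77% higher). Relative to the shift, Bcl2, Bcl2l1 and Bak1 lay below 0 on all 3 scales in all 3 comparisons.

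**Figure D3:**
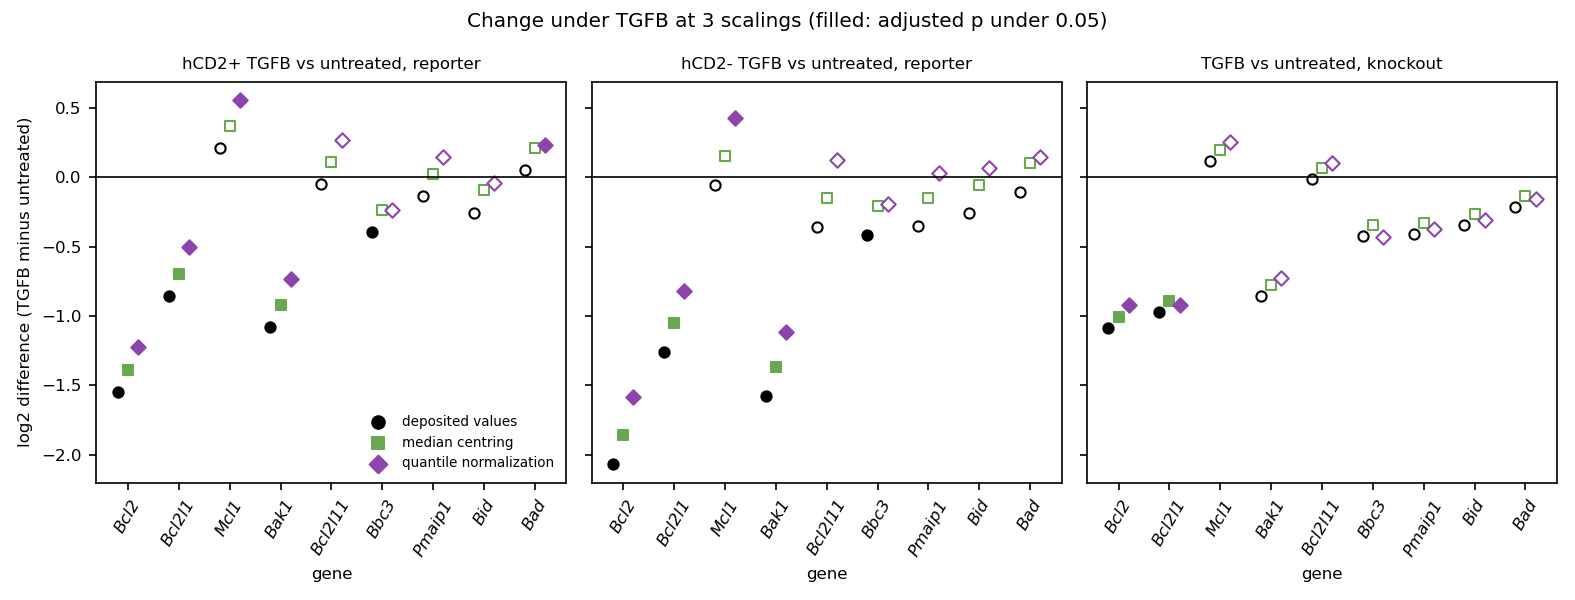
Log2 difference of TGFB from untreated cells for the 9 genes (vertical axis) on the deposited values, after centring each array on its median and after quantile normalization, in each of the 3 comparisons. Bcl2 and Bcl2l1 lie below 0 on every scale, and Mcl1 in hCD2- cells moves from -0.054 to 0.43.

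Across the 15 reporter arrays, after quantile normalization and removal of each study's mean, Bcl2 ran with Bcl2l1 (Pearson r 0.89) and with Bak1 (0.87) and against Mcl1 (-0.82). Bcl2l1 and Bak1 also ran against Mcl1 (-0.74 and -0.73), Mcl1 ran with Bad (0.73), and Bcl2l11 showed little relation to Bcl2 (-0.21). These coefficients include the differences between the treatment groups, so they are descriptions of 15 arrays in 3 groups and not tests. They hold for the quantile-normalized values only, on which Mcl1 was called higher in both fractions. On the deposited values Mcl1 was not called, and the coefficients were not computed there. By the same measure the genes most like Bcl2 were Rai14 (0.972), Hemk1 (0.968) and Nans (0.967), those most like Bcl2l1 were Chek1 (0.939), Ncapg2 (0.938) and Tnfrsf4 (0.937), and those most like Bak1 were Ddost (0.956), Kcnab2 (0.954) and Capn2 (0.947). Bbc3 had weaker matches, with Cep112 at 0.897, the Y-linked gene Eif2s3y at 0.835 and Eaf2 at 0.832.

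Transcripts that act with the family were read from 8 further lists, whose counts stand beside these shares of all genes on the deposited values. In hCD2+ cells 9.66% were called lower and 1.94% higher, in hCD2- cells 16.9% and 2.05%, and in knockout cells 1.85% and 0.895%. Medians over all genes were -0.066, -0.094 and -0.03. Among 12 other relatives of Bcl2, Bmf rose and Bnip3 fell in both fractions, and 1 further gene fell in each. The 2 lower calls among 12 were near the share of all genes in hCD2- cells. Bmf, which encodes a BH3-only protein, rose by 0.30 and 0.26 (limma adjusted p 0.0321 and 0.0473), and Bnip3, whose product acts in mitochondrial clearance, fell, with differences of -1.05 and -1.19 (adjusted p 0.00271 and 0.000661). The third gene was Hrk in hCD2+ cells (-0.42, adjusted p 0.0458) and Bcl2l12 in hCD2- cells (-0.32, 0.0483). None of the 12 passed in knockout cells. The medians were -0.21, -0.31 and -0.14 in hCD2+, hCD2- and knockout cells, and quantile normalization gave 1 higher and 1 lower call in each reporter comparison. It ended the calls of Bnip3 (-0.67 and -0.68, limma adjusted p 0.106 and 0.0818) and Hrk (-0.067, 0.859) and turned that of Bcl2l12 to 0.071 (0.563).

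Downstream of the mitochondrial pore, 3 of 11 caspase and apoptosome genes fell in each fraction, beside 9.66% and 16.9% of all genes, and none rose on the deposited values. Quantile normalization called 3 lower and 1 higher (Casp9) in each. Those that fell were Apaf1, the scaffold of the apoptosome (-1.40 and -1.42, limma adjusted p 0.000932 and 0.0006), the executioner caspase gene Casp6 (-1.0 and -1.34, 0.00457 and 0.00027) and Casp8, the initiator caspase of death receptors (-0.77 and -1.15, 0.042 and 0.00225). In knockout cells none of the 11 passed, with Apaf1 at -0.99 (adjusted p 0.130), and quantile normalization called 3 lower there. Of 4 caspase inhibitors, Birc5, which encodes survivin and also serves chromosome segregation, fell in both fractions (-1.35 and -2.05, limma adjusted p 0.0106 and 0.000265), and Birc3 fell in hCD2- cells (-0.65, 0.0315, and -0.15, 0.368 after quantile normalization). In knockout cells Birc5 stood at -0.18 (adjusted p 0.99) and none of the 4 passed.

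In the death receptor list of 10 genes, 3 fell and 1 rose in hCD2+ cells, beside 9.66% and 1.94% of all genes. In hCD2- cells 3 fell, beside 16.9% of all genes. Tnfrsf10b, the mouse TRAIL receptor gene, fell in hCD2+, hCD2- and knockout cells (-1.43, -1.57 and -1.45, limma adjusted p 2.88e-05, 6.68e-06 and 0.000949). The ligand gene Tnfsf10 (TRAIL) rose in hCD2+ cells (1.35, adjusted p 0.00436) and stood at 0.46 (0.278) in hCD2- and 1.31 (0.0717) in knockout cells. Fasl, the ligand of Fas, fell in hCD2+ cells (-1.24, 0.0304) and the adaptor gene Fadd fell in both fractions (-0.62 and -0.88, 0.0496 and 0.00437). Fas itself fell in hCD2- cells (-0.69, 0.0143) and stood at -0.09 (0.787) in hCD2+ cells. Quantile normalization gave 3 higher and 2 lower calls in each fraction, and 3 higher and 1 lower in knockout cells. The higher calls were Tnfsf10, Tnfrsf1b and Traf1 in all 3 comparisons. Tnfsf10 then stood at 1.58 in hCD2+, 0.83 in hCD2- and 1.51 in knockout cells (limma adjusted p 4.83e-06, 0.00227 and 0.000195). This scaling ended the calls of Fadd in hCD2+ cells (-0.45, limma adjusted p 0.0581) and Fas in hCD2- cells (-0.21, 0.283).

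The list with the lowest medians was that of the p53 pathway, which induces Bbc3, Pmaip1 and Bax under DNA damage. Of its 11 measured genes, 7 fell in hCD2+ cells, 8 in hCD2- cells and 6 in knockout cells, beside 9.66%, 16.9% and 1.85% of all genes. None rose, and the medians were -1.29, -1.29 and -1.16, beside -0.066, -0.094 and -0.03 over all genes. Quantile normalization called 7 lower in each comparison, and 2, 2 and 1 higher. The cell cycle inhibitor gene Cdkn1a (p21) fell furthest of the list (-3.94, -4.36 and -3.61, limma adjusted p 2.57e-09, 3.37e-10 and 5.98e-07). Zmat3 and Ccng1, both induced by p53, fell too, with differences of -1.69, -1.82 and -1.44 for Zmat3 and of -1.64, -1.59 and -1.29 for Ccng1. Tnfrsf10b, above, is in this list as well. Beside these, Pmaip1 did not pass in any of the 3 comparisons and Bbc3 moved by no more than 0.42.

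Of 10 genes that regulate Bim and Puma, 2 rose and 3 fell in hCD2+ cells, 1 rose and 4 fell in hCD2- cells, and 1 rose and 2 fell in knockout cells. Over all genes, 1.94%, 2.05% and 0.895% rose and 9.66%, 16.9% and 1.85% fell in these 3 comparisons. Foxo1, the forkhead factor of quiescent T cells, rose in all 3 (0.82, 0.55 and 0.81, limma adjusted p 0.00158, 0.0171 and 0.0309). The pseudokinase gene Trib3 fell in all 3 (-1.56, -1.74 and -1.42, adjusted p 0.000365, 7.8e-05 and 0.0172), and E2f1, a factor of the S phase programme, fell likewise (-1.17, -1.35 and -1.04). Ddit3 (CHOP), a stress factor, fell in both fractions (-1.58 and -1.59, 0.00184 and 0.00117) and stood at -1.42 (0.0611) in knockout cells. Medians were -0.39, -0.26 and -0.31, and quantile normalization called 2 higher and 3 lower in each comparison.

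Of 11 genes of survival cytokine signalling, which raises Bcl2 and Bcl2l1 through STAT5, 4 fell in hCD2+ cells, 7 in hCD2- cells and 2 in knockout cells. Beside these, 9.66%, 16.9% and 1.85% of all genes fell, and none of the 11 rose on the deposited values. Quantile normalization gave 4 higher and 5 lower, 4 higher and 7 lower, and 3 higher and 5 lower calls. It was the only list of the 8 with calls between the sorted fractions, where 4 of 11 were higher in hCD2+ cells and 0.155% of all genes were called. Those 4 were Socs2 (2.64, limma adjusted p 0.000369), Il2ra, the alpha chain of the interleukin-2 receptor (1.44, 0.00273), the survival kinase gene Pim1 (2.05, 0.0051) and Cish (1.23, 0.032), and Bcl2 and Bcl2l1, at 0.52 and 0.40, did not pass there. Against untreated cells, Il2ra and Cish fell in hCD2+ cells (-1.10 and -1.34), and Socs2 and Pim1 stood at -0.60 and -0.23 without a call. In hCD2- cells all 4 fell (Il2ra -2.54, Cish -2.57, Socs2 -3.24 and Pim1 -2.28). In knockout cells Il2ra and Socs2 fell (-1.49 and -1.60, limma adjusted p 0.00256 and 0.0321). Pim1 and Cish stood at -1.46 and -1.04 there without a call (0.0641 and 0.0793), and quantile normalization called all 4 lower in knockout cells. Of 6 genes of Mcl1 protein turnover, none passed in any of the 3 TGFB comparisons, with medians of -0.32, -0.37 and -0.068, and quantile normalization called 1 higher in hCD2- and 1 higher in knockout cells.

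**Figure D4:**
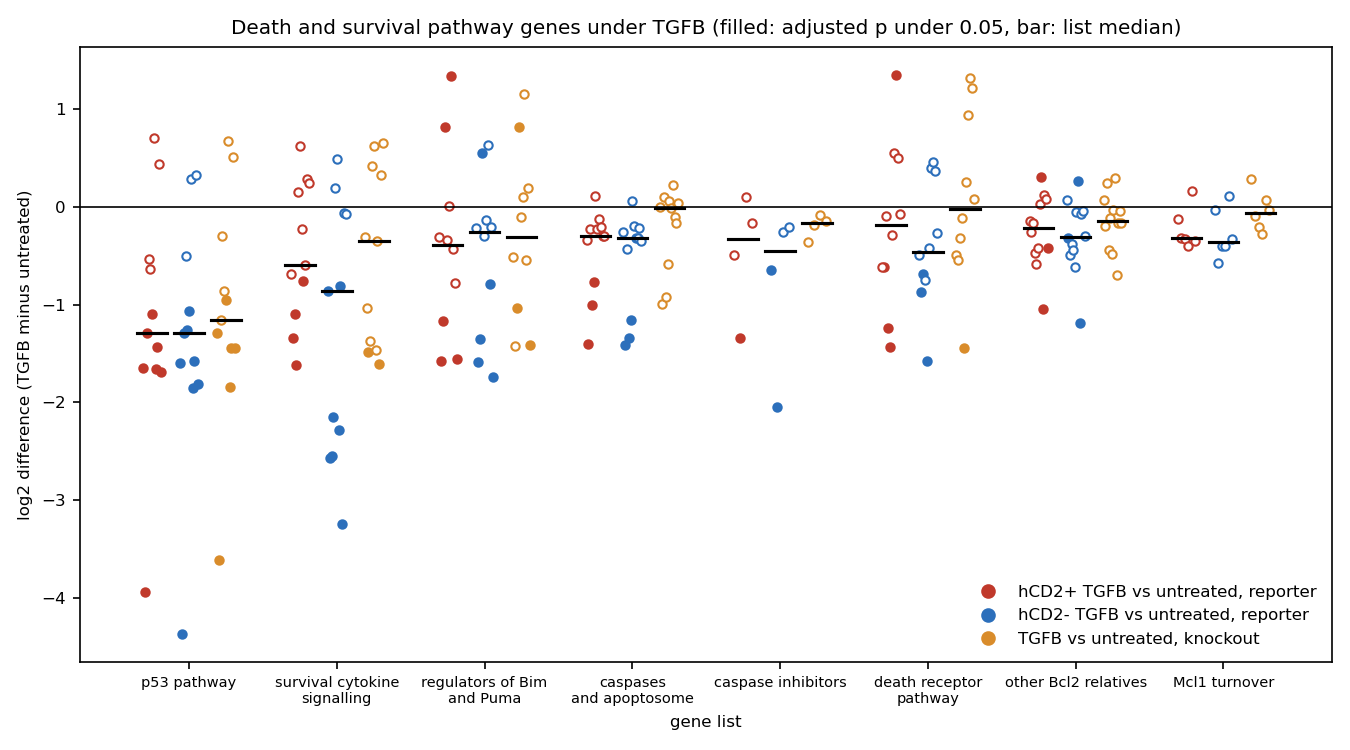
Log2 difference of TGFB from untreated cells (vertical axis) for each measured gene of the 8 lists (horizontal axis), by comparison, with a bar at each list's median. Filled points had an adjusted p under 0.05, and the p53 list has the lowest medians, at -1.29, -1.29 and -1.16.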

How the data were processed

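Each of the 21 samples was hybridised to 1 Affymetrix mouse exon array as biotin-labelled cDNA. The deposited values are log2 signals that the authors summarised with RMA in Affymetrix Expression Console 1.2 on mm8, per the submitters' processing notes, for 23332 transcript clusters. None of the table's columns belonged to other samples. Arrays have no read depth, so their number limits the precision.

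Clusters were named from the array's annotation: 14996 carried 1 symbol, 1019 several and 7317 none. Where a symbol had several clusters (135 genes), the one with the highest mean was kept, which left 14860 genes. Differences were tested 2-sided with limma 3.58.1 in R 4.3.3 on all 21 arrays, modelling 5 group means plus study (study 1: reporter replicates 1 to 3, study 2: all others), and Benjamini-Hochberg adjustment over all genes. The fit was tested on simulated data. The labels say biological replicate and name no animal or culture, so the p-values cover only the spread of these samples, which may be technical. Alternatives were a fit with replicate number as a block or without study, each study alone, median centring, quantile normalization, a trended robust prior, omitting the dimmest share of genes (0.333), the narrow arrays or each array in turn, and, chosen after seeing the data, quantile normalization within each genotype.

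The genes and lists were chosen with earlier results of these data known, so no p is adjusted over a list. Named are all measured family members, up to 4 genes of each list with the smallest adjusted p in a comparison, and the 3 genes most like each member called in reporter cells. Promoter windows come from RefSeq, GRCm38.p6. The array's clusters were not placed on a genome, so exons and UTRs they read are not given.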

Additional observations from a re-analysis of the deposited data

Results flagged for a closer look

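Among 27 sets of 5 reporter samples (9 genes in 3 groups), 3 had a sample that stood apart from the other 4 by Dixon's criterion at the 95% level, which chance alone gives in about 1 of 20 sets. Bcl2l1 was low in untreated reporter replicate 5, at 7.64 beside 8.06 to 8.18 in the others. Bak1 was low in hCD2+ replicate 3, at 6.84 beside 7.79 to 8.16. Bbc3 was low in hCD2- replicate 1, at 6.0 beside 6.32 to 6.44. The arrays of the Bak1 and Bbc3 samples are among the 4 with a narrow interquartile range (2.01 and 2.33), and that of the Bcl2l1 sample is not (2.88).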

How the results depend on the processing

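The calls of Bcl2 and Bcl2l1 in both reporter fractions were made under every alternative except the fits within a single study. Within study 1 (3 arrays a group), 1 gene was called lower in hCD2+ cells, and within study 2 (2 arrays a group) none were in hCD2+ cells, 2 were in hCD2- cells and 1 was in knockout cells, where Bcl2l11 in hCD2+ cells read 0.015. In knockout cells 1 gene was called lower without the study term, with the replicate block and with the trended robust prior. Without the narrow arrays 2 genes were lower and 1 higher in hCD2+ cells, and signs turned for Bcl2l11 (0.24) and Pmaip1 (0.066) in hCD2+ cells and for Bad (0.01), Mcl1 (0.17) and Pmaip1 (0.061) in hCD2- cells. Without the dimmest genes 1 gene was called higher in untreated knockout than in reporter cells.

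Median centring turned Bcl2l11 (0.11) and Pmaip1 (0.024) in hCD2+, Bad (0.10) and Mcl1 (0.15) in hCD2- and Bcl2l11 (0.07) in knockout cells, and between the untreated genotypes Bbc3 (-0.11), Bcl2l1 (-0.003) and Bid (-0.072), with 0 genes called higher there. Quantile normalization turned Bcl2l11 (0.27) and Pmaip1 (0.15) in hCD2+ cells, Bad (0.15), Bcl2l11 (0.13), Bid (0.065), Mcl1 (0.43) and Pmaip1 (0.032) in hCD2- cells, Bcl2l11 (0.11) in knockout cells and Bbc3 (-0.020) between genotypes, with 2, 1 and 0 genes called higher in hCD2+ cells, in hCD2- cells and between genotypes. Within each genotype it turned Bcl2l11 (0.28) and Pmaip1 (0.15) in hCD2+ cells, Bad (0.16), Bcl2l11 (0.13), Bid (0.068), Mcl1 (0.42) and Pmaip1 (0.031) in hCD2- cells and Bcl2l11 (0.10) in knockout cells. It then called 2 genes higher in hCD2+ cells and 1 in hCD2- cells. Between the untreated genotypes, whose offset this scaling leaves in place, it called 7 higher in knockout cells. The cause of the turned signs and calls was not tested.

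Leaving out each array in turn gave 2 to 4 genes called lower and 0 to 1 higher in hCD2+ cells, 3 to 4 lower in hCD2- cells, 0 to 2 lower in knockout cells and 1 to 3 higher between genotypes. Signs turned for Bad (-0.017 to 0.12), Bcl2l11 (-0.29 to 0.22) and Pmaip1 (-0.26 to 0.063) in hCD2+ cells and for Bcl2l11 (-0.15 to 0.20) in knockout cells.

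The groups share replicate numbers, and the deviations of same-numbered samples correlated from -0.30 to 0.73 in reporter cells (4 of 15 pairs over 0.1) and from -0.18 to 0.58 in knockout cells (2 of 3). All 4 of those reporter pairs were the hCD2+ and hCD2- samples of replicates 2 to 5 (0.60 to 0.73, where replicates 4 and 5, the only 2 of study 2, share 1 value by construction), and the pair of replicate 1 correlated at -0.30. Untreated and TGFB reporter samples thus share only a number by this check, whereas 4 of the 5 sorted pairs ran together. Reporter pairs of unlike number reached 0.68 too, so the check does not settle whether the sorted fractions are paired. Between same-numbered fractions, Bcl2, Bcl2l1 and Bak1 were each higher in hCD2+ cells in 5 of 5, and with the block the sort differences of Bcl2 and Bcl2l1 had limma adjusted p of 0.906 and 0.742. With the replicate block, Bcl2 in knockout cells had a limma adjusted p of 0.0595 at the same difference of -1.08 and Bbc3 in hCD2+ cells one of 0.0640, and it changed no other call. Other clusters of the same symbol gave no value, since each gene had 1 cluster.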
